A study of Mus musculus with 6 samples.

Results

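Imprinted genes are expressed mainly or only from the copy inherited from 1 parent. The set described here was 10 such genes, most of them known for an effect on embryonic growth: Igf2, H19, Igf2r, Plagl1, Peg3, Mest, Grb10, Ndn, Nnat and Gnas. A probe set, the group of short oligonucleotides with which the array reads 1 transcript, was taken as a member where the platform's annotation gave it 1 of these symbols alone. By this rule 9 genes with 18 probe sets were found, of 8251 genes with 10833 probe sets on the array. H19 had none, since its symbol stood only beside that of a second gene, and it was not analysed here. The genes were chosen by name with their measured difference between the 2 regions already known, so those differences are given as a description, without p-values.

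RNA of the E11.5 mouse lung was read on 6 arrays, the E standing for the embryonic day. The 3 branching samples were taken from the lungs of both sides, where side branches form, and the 3 non-branching samples from the main bronchi with a piece of the trachea. No strain, genotype or treatment is given in the sources used here, nor whether embryos were pooled, so the spread between samples may be technical. Values are intensities on a linear scale, and those of different probe sets were not compared as amounts of RNA. Probe sets were only ranked by brightness, and intensities were summed over lists of cell type markers, where the brightest probe sets weigh most. On non-branching replicate 2 the median of 19 bacterial and yeast controls was 78.8, against 19.8 to 40.7 elsewhere, and on non-branching replicate 3 the log2 gap between the 3' and 5' actin controls was 0.75, against 0.20 to 0.49.

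The imprinted growth genes are known to act on both sides of the balance set by insulin-like growth factor 2. Igf2 encodes that growth factor, Igf2r the receptor that takes it into lysosomes, and Grb10 an adaptor that dampens signalling from the insulin and IGF1 receptors. Plagl1 encodes a zinc finger transcription factor known to act on Igf2 and other imprinted genes, and Peg3 a large zinc finger protein. Growth promoters tend to be expressed from the paternal copy and growth inhibitors from the maternal copy. Igf2, Plagl1, Peg3, Mest, Ndn and Nnat are expressed from the paternal allele, and Igf2r and, outside neurons, Grb10 from the maternal allele. The Gnas locus makes transcripts from either or both alleles.

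The 250 bases before a transcription start, from RefSeq on build GRCm38.p6, are shown for Plagl1, Igf2 and Peg3. Plagl1 was higher in the branching region and Igf2 lower, and 1 of the 3 probe sets of Peg3 was lower without overlap. Capitals mark CG dinucleotides, the sites at which DNA methylation marks the parental copies of imprinted control regions. Plagl1 and Peg3 had 1 listed start each, and of the 4 of Igf2 the one farthest downstream is shown.
Plagl1, chr10:13090582-13090831, plus strand: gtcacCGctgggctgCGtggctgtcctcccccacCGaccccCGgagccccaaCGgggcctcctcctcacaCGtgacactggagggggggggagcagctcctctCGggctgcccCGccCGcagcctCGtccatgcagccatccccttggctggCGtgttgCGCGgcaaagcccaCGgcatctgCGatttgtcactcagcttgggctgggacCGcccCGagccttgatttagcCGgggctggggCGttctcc
Igf2, chr7:142657497-142657746, minus strand: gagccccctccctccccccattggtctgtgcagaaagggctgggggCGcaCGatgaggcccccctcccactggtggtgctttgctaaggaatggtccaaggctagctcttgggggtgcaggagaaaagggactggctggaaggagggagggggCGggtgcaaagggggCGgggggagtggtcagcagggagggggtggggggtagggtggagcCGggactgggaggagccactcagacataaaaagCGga
Peg3, chr7:6730420-6730669, minus strand: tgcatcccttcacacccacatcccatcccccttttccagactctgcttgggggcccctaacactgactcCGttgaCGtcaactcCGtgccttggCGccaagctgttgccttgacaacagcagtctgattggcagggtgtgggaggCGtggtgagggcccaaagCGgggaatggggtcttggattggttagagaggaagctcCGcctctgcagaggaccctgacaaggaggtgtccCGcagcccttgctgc

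The window of Plagl1 held 19 CG dinucleotides, that of Peg3 8 and that of Igf2 shown here 6, and the other 3 windows of Igf2 held 1, 10 and 22. Over all 32851 windows of this length the median was 6, and 19.7% held as many as that of Plagl1. The windows with most CG dinucleotides were 1 of Grb10, with 40, and 1 of Gnas, with 29, and Igf2r had 27 in its window. In all, 16 of the 18 member windows, of 9 genes, held 6 or more. Because 2 windows of Mest and 2 of Gnas overlap, these are not 18 separate stretches. The letters TATAAA, searched on both strands, were found in 3 of the 4 Gnas windows, 2 of which overlap, and in 12.4% of all windows. Those matches describe the letters in these windows and not binding.

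The members did not move as 1 group. Plagl1 was higher in the branching region, and both its probe sets showed this. Igf2 and 1 of the 3 probe sets of Peg3 were lower there. Igf2r and the bright probe set of Gnas had lower and 2 probe sets of Grb10 higher values without a call, and Mest and Nnat overlapped between the regions. Each probe set was fitted with limma across all 9316 probe sets bright enough to test, and called at a Benjamini-Hochberg adjusted p under 0.05. Of the 18 member probe sets 16 were tested and 4 were called, 2 higher and 2 lower in branching, while 2.03% of all probe sets tested were called, 0.902% higher and 1.13% lower. Of the 16, 4 had all branching values above all non-branching values and 6 had them all below, so 10 did not overlap. Over all probe sets tested the share was 20.8%, with 9.79% above and 11.0% below. None of the 4 calls held without the trend of the variance on brightness that the fit assumes. The median log2 difference, branching minus non-branching, was -0.14 over the 16 and -0.0046 over all probe sets tested. With the brightest probe set for each gene, 1 of 9 genes was called higher and 1 lower, and the median was -0.25, against -0.0082 over the 6798 genes tested.

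**Figure D1:**
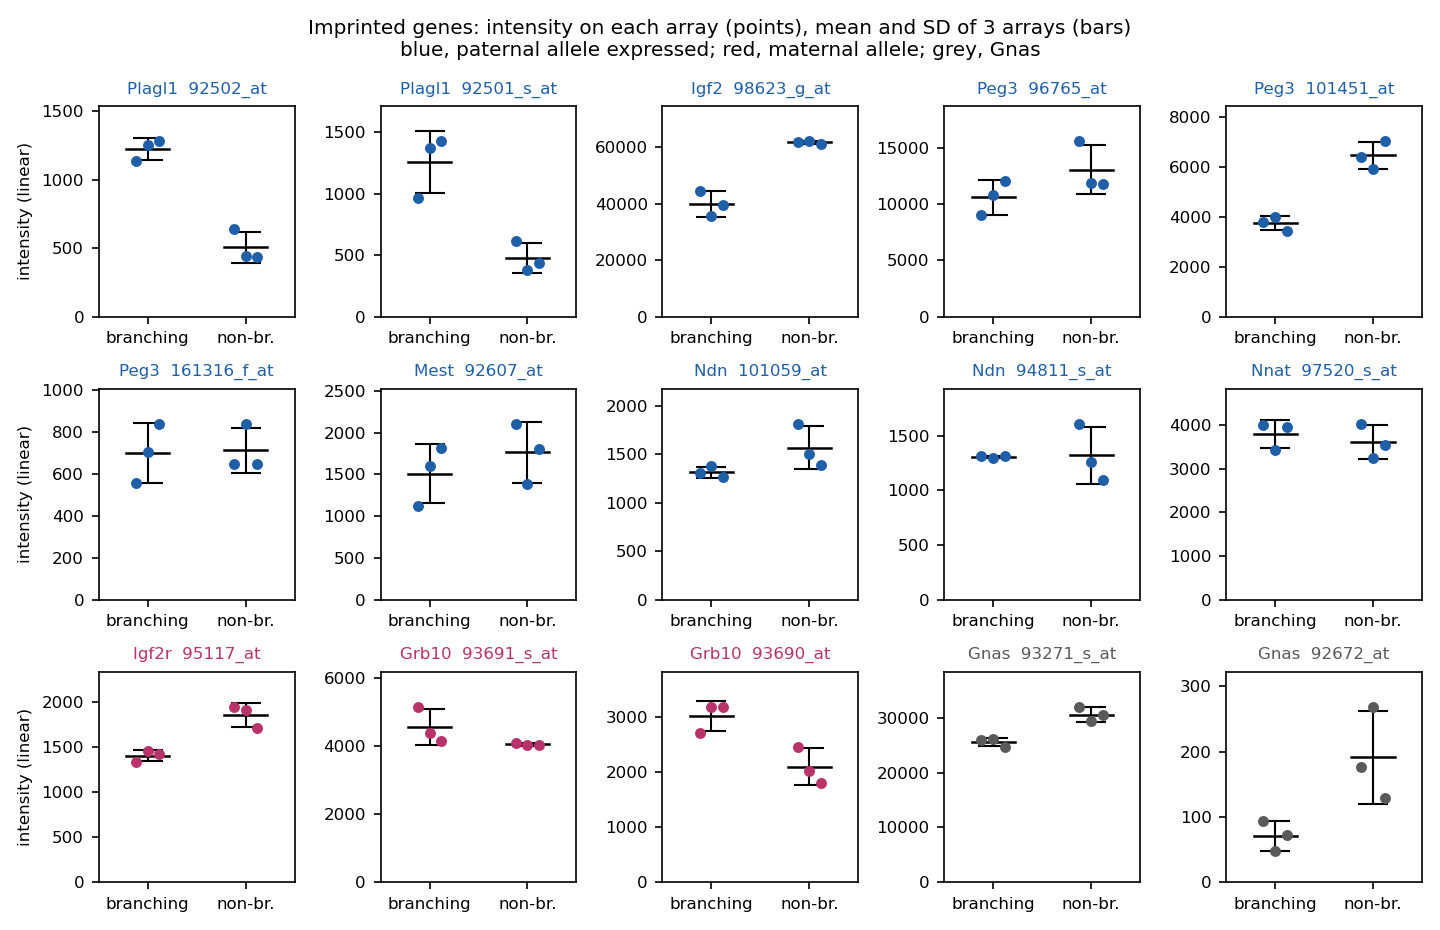
Intensity of 15 member probe sets that read above background in at least 1 region, on each of the 3 branching and 3 non-branching arrays (points), with the mean and SD (bars); each vertical axis is linear and starts at 0. Both Plagl1 panels show the branching points above the non-branching ones, and Igf2, Igf2r and Gnas show them below.

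Among the genes of the paternal allele, Plagl1 (Entrez gene 22634) differed most. Its first probe set, 92502_at, read 1136, 1254 and 1284 on the branching arrays and 639.9, 446 and 436 on the non-branching arrays. The lowest branching value was thus well above the highest non-branching value. The means were 1225 ± 78.4 (SD, n = 3) and 507 ± 115, a log2 difference of 1.29 ± 0.18 (SE), or 2.45-fold. The second probe set, 92501_s_at, whose name marks a design shared by several transcripts, read 969, 1375 and 1429 against 612, 377 and 439. Its log2 difference was 1.41 ± 0.23, so the probe sets differed from each other by less than their standard errors. Both were called. The call of the first ended when branching replicate 3 was left out, with a log2 difference of 1.26. The call of the second ended when branching replicate 2 or 3 or non-branching replicate 2 or 3 was left out. It also ended when dim probe sets were kept in the fit, or with a block for the replicate number. The differences of the second lay between 1.26 and 1.61 over all alternatives tried.

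Igf2 (Entrez gene 16002) was lower in branching. The name of its bright probe set, 98623_g_at, marks a less specific design. That probe set read 44582, 35523 and 39665 in branching and 61892, 62184 and 61157 in non-branching. The 3 non-branching arrays lay close together and above every branching array. The means were 39923 ± 4535 and 61744 ± 529 (SD, n = 3), a log2 difference of -0.64 ± 0.09 (SE), or 1.55-fold. This was 1 of the brightest probe sets of the array, at percentile 99.96 of all, and whether its signal was near saturation was not tested. The other probe set, 98622_at, read 8.40 to 48.6, below the background level of 147 on all 6 arrays, and gives no reading of Igf2. That level is the 95th percentile of the values of 19 control probe sets, which read bacterial or yeast transcripts. The bright probe set was called, but not when branching replicate 3 or non-branching replicate 2 or 3 was left out, nor when dim probe sets were kept in the fit. Its log2 difference lay between -0.72 and -0.55 under all alternatives tried.

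The 3 probe sets of Peg3 (Entrez gene 18616) disagreed in size. Probe set 101451_at read 3772, 3985 and 3431 in branching and 6395, 5913 and 7025 in non-branching. The groups stood apart, with a log2 difference of -0.79 ± 0.10 (SE), or 1.73-fold lower in branching, and this probe set was called and stayed called whichever array was left out. The brightest one, 96765_at, read 9007, 10804 and 12049 against 15645, 11860 and 11793. There the groups overlapped and the difference was -0.30 ± 0.14, which was not called. The third, 161316_f_at, whose name marks a design shared within a gene family, read 554 to 839 in branching and 649 to 838 in non-branching, a difference of -0.04 ± 0.20. The gap between the differences of the first and second of these was 0.49, and their deviations from the region means did not run together, with a Pearson correlation of -0.26 over the 6 arrays.

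Mest, which encodes a protein of the hydrolase family expressed in mesoderm, varied as much among arrays of a region as between regions. It read 1122, 1596 and 1811 against 2105, 1383 and 1805, a log2 difference of -0.23 ± 0.21 (SE). Ndn encodes necdin, a growth suppressor best known in neurons. Its probe set 101059_at read 1305, 1376 and 1264 in branching and 1815, 1504 and 1385 in non-branching. These groups only just missed each other, with a difference of -0.25 ± 0.13, and its other probe set, 94811_s_at, overlapped, with means of 1306 ± 11.2 and 1320 ± 262 (SD, n = 3). Nnat encodes neuronatin, a small membrane protein of the endoplasmic reticulum. It read 3991, 3416 and 3960 against 4025, 3239 and 3550, a difference of 0.07 ± 0.11. None of these 4 probe sets was called.

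**Figure D2:**
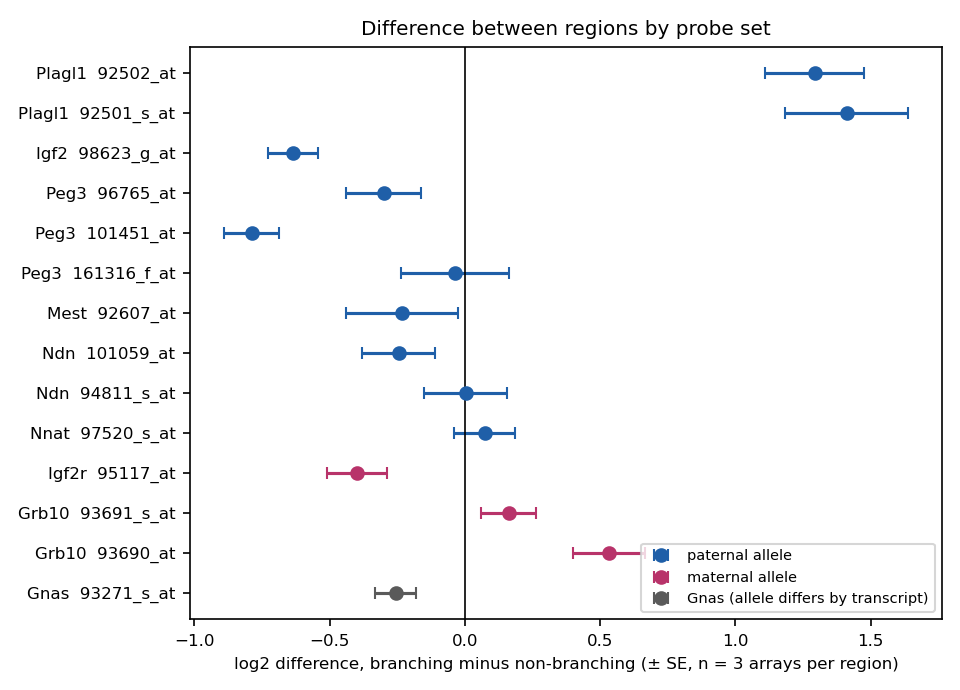
Log2 difference of intensity, branching minus non-branching, with the SE of the limma fit (n = 3 arrays per region), for the 14 member probe sets whose mean was above background in both regions; blue marks genes of the paternal allele, red those of the maternal allele and grey Gnas. Both directions occur among the blue and among the red points, from -0.79 for 1 probe set of Peg3 to 1.41 for 1 of Plagl1.

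The 2 genes of the maternal allele lay on opposite sides. Igf2r (Entrez gene 16004) read 1340, 1459 and 1420 in branching and 1947, 1914 and 1707 in non-branching. Every branching array was lower, with a log2 difference of -0.40 ± 0.11 (SE), or 1.32-fold, which was not called. The receptor was thus lower in the same region as its ligand Igf2. Grb10 (Entrez gene 14783) read 2713, 3179 and 3190 in branching and 2467, 2032 and 1814 in non-branching on probe set 93690_at. Its branching arrays were all higher, by 0.53 ± 0.13, without a call. On its brighter probe set, 93691_s_at, the values were 5159, 4374 and 4145 against 4107, 4022 and 4045, a difference of 0.16 ± 0.10 in which the lowest branching value barely exceeded the highest non-branching one. The third Grb10 probe set, 95450_at, was below background on all 6 arrays.

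Gnas encodes the stimulatory G protein alpha subunit, which couples receptors to adenylyl cyclase. Its bright probe set, 93271_s_at, read 26005, 26029 and 24738 in branching and 31982, 29295 and 30404 in non-branching. The branching arrays were all lower, by 0.26 ± 0.08 (SE) on the log2 scale, without a call. Under quantile normalization that difference was -0.20. Probe set 92672_at was below background on all 3 branching arrays, at 47.7 to 93.3, and read 129 to 269 in non-branching, so no fold is given. The third, 102082_at, was below background on all 6 arrays. The files do not say which transcript of the locus each one reads.

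By the allele expressed, the brightest probe sets gave 2 positive and 4 negative differences among the 6 genes of the paternal allele, with 1 called each way, and 1 of each sign among the 2 of the maternal allele, with none called. The median was -0.24 for the paternal and -0.12 for the maternal genes. The counts were too small to set the 2 classes against each other.

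**Figure D3:**
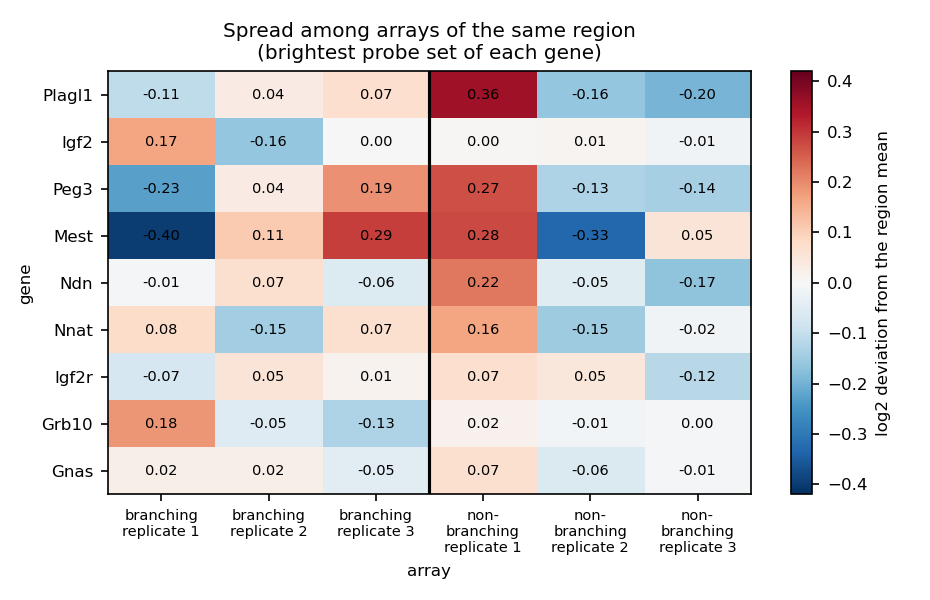
Log2 deviation of each array from the mean of its region, for the brightest probe set of each of the 9 genes; columns are the 6 arrays, rows the genes, red above and blue below the region mean. Plagl1, Peg3, Mest and Ndn are all above their mean on non-branching replicate 1, by 0.22 to 0.36.

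The spread among arrays of the same region does not use the difference between regions. Among the brightest probe sets of the 9 genes Mest varied most, with a within-region SD of 0.33 on the log2 scale. This was larger than that of 95% of the 200 probe sets nearest to it in brightness. The second probe set of Plagl1, 92501_s_at, was also at 0.33 and exceeded 88.5% of its neighbours, while the first exceeded 57%. The brightest probe set of Peg3, at 0.22, exceeded 87.5% of its neighbours, and its other probe sets, 101451_at and 161316_f_at, exceeded 43% and 65%. Igf2r, at 0.09, exceeded 6.50%, and Gnas, at 0.05, exceeded 9.50%. Mest was thus variable for its brightness, and Igf2r and the bright probe set of Gnas steady. Across the 6 arrays the deviations of Plagl1 and Peg3 correlated at a Pearson r of 0.90, those of Plagl1 and Ndn at 0.88 and those of Mest and Peg3 at 0.88. These were the 3 highest values, and the lowest was -0.70 for Grb10 and Mest. Plagl1 and Igf2 did not run together, at -0.20. Of all pairs of genes tested, 2.06% exceeded the value of Plagl1 and Peg3. That pair was picked as the highest of the 36 member pairs, so this share does not show it to be unusual. Over the 36 pairs of genes the median was 0.33 with 25 above 0, against a median of -0.0013 with 49.9% above 0 over all pairs of the 6798 genes tested. All pairs share the same 6 arrays, whose deviations sum to 0 in each region, so these correlations are a description. The second Peg3 probe set, 101451_at, did not share the pattern of the first.

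Among the 6798 genes tested, those with a profile over the 6 arrays most like Plagl1 were Nde1, a gene of mitosis and nuclear movement (Pearson r = 0.997, log2 difference 0.40), Chaf1b, a subunit of the chromatin assembly factor (r = 0.996, 0.89) and Eif3l, a translation initiation factor subunit (r = 0.995, 0.16). Most like Igf2 were the ribosomal protein gene Rps10 (r = 0.996, -0.25), the inositol phosphate kinase gene Ip6k1 (r = 0.993, -0.29) and Snd1, which encodes a nuclease domain protein (r = 0.988, -0.27). All 6 had a smaller difference between the regions than the gene they resembled. These profiles include the difference between the regions, and the genes are the highest of 6797 compared. Values near 1 are thus reached by selection, and they are given as a description.

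The other imprinted genes showed no call. Of 45 listed, 24 had a probe set, 17 were tested and 8 were below background on all 6 arrays, among them Magel2 and Peg10, which was still tested. Of the 17, limma called 0 at an adjusted p under 0.05, where 2.03% of all probe sets tested were called. An unadjusted p under 0.05 was reached by 3, all lower in branching, and by 14.6% of all probe sets tested. The median log2 difference was -0.0057, near that of all probe sets. Sgce, the epsilon-sarcoglycan gene of the paternal allele, read 887, 928 and 909 in branching and 1816, 1430 and 1211 in non-branching. The groups stood apart, with a difference of -0.69 ± 0.16 (SE, limma adjusted p = 0.0676, range 0.0492 to 0.255 over the alternatives). Meg3, a long non-coding RNA of the maternal allele named after its values were seen, read 4109 to 4489 against 5295 to 6041, a difference of -0.42 ± 0.09 (limma adjusted p = 0.0546, range 0.0266 to 0.334 over the alternatives). Cdkn1c, the maternally expressed inhibitor of cyclin-dependent kinases, read 8316, 5517 and 8183 against 15724, 8194 and 8894. Non-branching replicate 1 was far above the other arrays, and the difference of -0.54 ± 0.24 did not pass (limma adjusted p = 0.352, range 0.176 to 0.597), with -0.24 without that array. Phlda2, a maternally expressed gene known to limit placental growth, overlapped between the regions, with means of 231 ± 18.3 and 178 ± 90.6 (SD, n = 3).

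**Figure D4:**
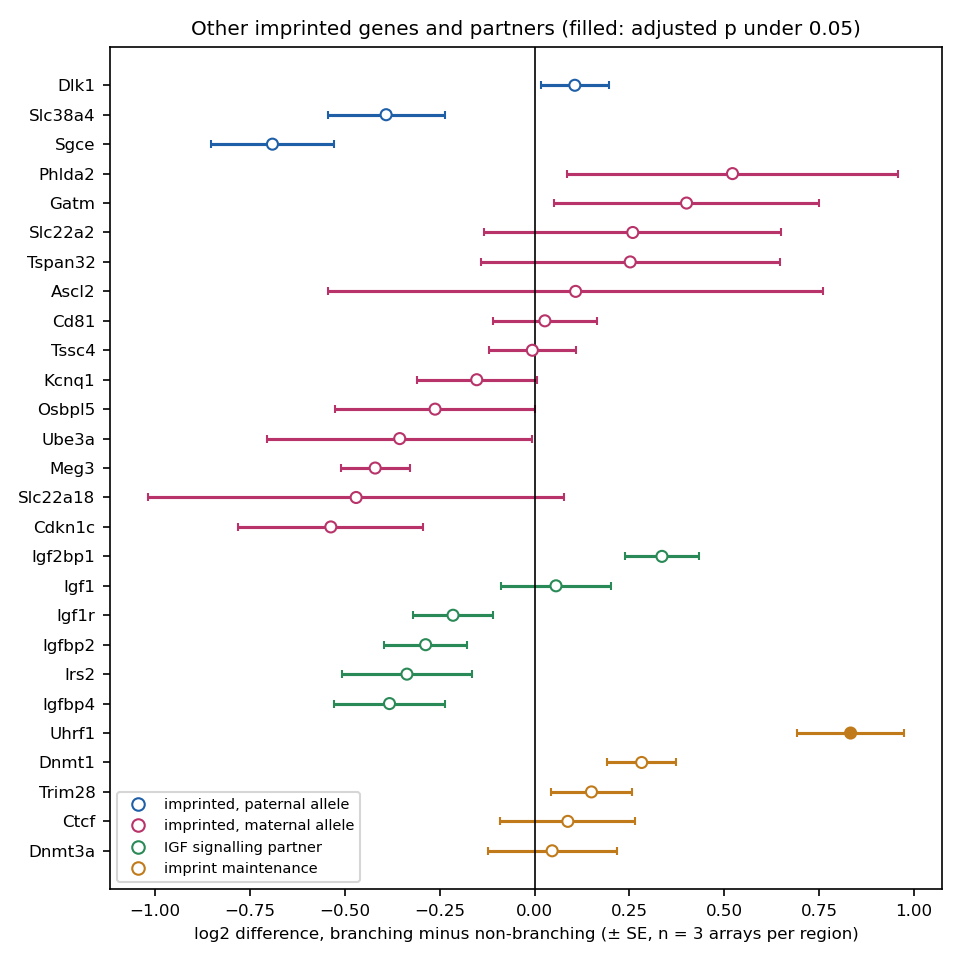
Log2 difference of intensity, branching minus non-branching, with the SE of the limma fit (n = 3 arrays per region), for the tested genes of 3 lists with a mean above background in both regions; a filled point passed at an adjusted p under 0.05. Uhrf1 is the 1 filled point, at 0.83, and Sgce lies lowest, at -0.69.

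Of the partners through which Igf2 acts, 15 were listed, 12 had a probe set and 11 were tested. limma called 0 of the 11, where 2.03% of all probe sets tested were called. An unadjusted p under 0.05 was reached by 4, 1 higher and 3 lower, and by 14.6% of all probe sets tested. The median log2 difference was -0.29, against -0.0046 over all probe sets tested. Igfbp4, which encodes a binding protein of the growth factors, read 2132, 1746 and 1913 in branching and 2986, 2088 and 2529 in non-branching, a difference of -0.38 ± 0.15 (SE, limma adjusted p = 0.268). The binding protein gene Igfbp7 read 43.7 to 45.1, below background, in branching and 117 to 201 in non-branching, and Igfbp3 had means of 139.6 ± 53.0 and 202 ± 60.6 (SD, n = 3). Neither was called, and no fold is given for either. Igf1r, the receptor that signals for Igf2 and was named after its values were seen, read 2252, 2114 and 2502 against 2786, 2538 and 2633. Those values did not overlap, but the difference of -0.21 ± 0.11 did not pass (limma adjusted p = 0.390).

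Of 6 tested genes that maintain imprints, 12 being listed and 8 on the array, 1 rose and 5 did not pass, with a median log2 difference of 0.12. Over all probe sets tested the median was -0.0046 and 2.03% were called. Uhrf1, which brings the maintenance DNA methyltransferase to newly copied DNA and is abundant in dividing cells, read 3184, 3183 and 3821 in branching and 1566, 2062 and 2125 in non-branching. It rose by 0.83 ± 0.14 (SE, limma adjusted p = 0.0187). The adjusted p was 0.0868 without branching replicate 3, 0.0519 without non-branching replicate 2, 0.0506 without non-branching replicate 3, 0.182 without the variance trend and 0.0789 when dim probe sets were kept.

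Markers of several cell types also differed between the regions. Over all probe sets tested 2.03% were called, 0.902% higher and 1.13% lower in branching. The summed intensity of 7 lung mesenchyme markers was 16027 to 16202 on the branching and 29146 to 30247 on the non-branching arrays, and 4 of 6 tested were called lower. Of that list Foxf1 had higher values in branching, 537 to 606 against 103 to 380, without a call. That of 4 smooth muscle markers was 2102 to 2715 against 5855 to 7121, with all 4 called lower. That of 6 endothelial markers was 1379 to 1870 against 2438 to 2453, and that of 6 cardiac muscle markers 1835 to 1897 against 2945 to 3673. That of 6 neuronal and neural crest markers was 3749 to 3909 against 4451 to 4756. In each of the endothelial, cardiac and neuronal lists 1 gene was called lower. In the neuronal and neural crest list this was Sox10, with means of 829 and 1718. Tubb3 (1963 against 1755) and Th (181 against 94.3) of that list had higher means in branching, without a call. That of 5 red blood cell markers was 135955 to 151210 against 87747 to 95262, with 3 called higher. That of 8 lung epithelium markers was 3806 to 3965 against 3742 to 3939 and that of 4 liver and gut markers 520 to 535 against 335 to 477, with none called in either. Each of the 4 liver and gut markers was below the background level of 147 on at least 1 array. Their sum thus rests largely on values near background. Within the epithelial list the branching values of Sftpc lay above the non-branching ones, by 1.99 on the log2 scale, and those of Sox2 and Foxa2 below. These 3 of the 8 had an unadjusted limma p under 0.05, where 14.6% of all probe sets tested did. Below background on all 6 arrays were Meox2 of the mesenchyme, Ret of neurons, Myh6 of cardiac muscle and Cdx2 of the gut, and no marker was at 0. In such samples fewer cells of a type and less RNA per cell cannot be told apart, and the part of cell makeup in the differences of the imprinted genes was not tested.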

How the data were processed

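The members and lists were chosen with earlier results of these data known. The deposited file gives the intensity of each of 12488 probe sets on a linear scale, and the authors' steps that made it are not given in the sources used here. The trimmed mean of each of the 6 arrays was 500.3, so the arrays had been scaled alike. Array medians ran from 212 to 229, and precision is limited by the number of arrays.

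After 66 controls were left out, values under 16 were set to 16 and log2 was taken. The dimmest 25% of probe sets were left out and the other 9316 tested two-sided in R 4.3.3 with limma 3.58.1 and its variance trend, adjusted by the Benjamini-Hochberg method. Fold changes are on this floored scale, which understates those of dim genes. In the annotation 10833 probe sets had 1 symbol, 396 several and 1193 none. The 9 genes with 1 symbol of the list are members, and the brightest probe set stands for a gene in lists. Named in each other list are the genes called, or else the 3 largest differences above background, and, for each gene called on its brightest probe set, the 3 most alike in profile. The fit was tested on simulated data. The alternatives tried were a block for the replicate number, other scaling, filters, floors and variance model, and leaving out each array. The labels share the replicate numbers 1 to 3 between regions without saying that they mark a common source.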

Additional observations from a re-analysis of the deposited data

How the results depend on the processing

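Of all probe sets limma called 189. The count was 100 without the filter on dim probe sets, 22 without the variance trend and 61 to 150 with 1 array left out, where branching replicates 2 and 3 and likewise non-branching replicates 2 and 3 brought it down by over 1.5 times. With the replicate number as a block, which the labels do not tie to a common source, it was 114. Deviations of same-numbered arrays correlated at -0.0023, 0.013 and -0.015, so no deviation shared by same-numbered arrays was seen. With so few arrays this cannot settle whether they had a common source.

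Of the 4 member calls, 2 were left without the filter, 0 without the variance trend, 1 when branching replicate 3 was left out, and 2 when non-branching replicate 2 or 3 was. The range over all omissions was 1 to 4. With the replicate block 3 were called, and the call lost was that of the second Plagl1 probe set. No member called in the fit reversed under any alternative tried. The log2 difference of Grb10 was 0.35 as the mean of its 2 tested probe sets.

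Of other imprinted genes 0 were called, against 1 with quantile normalization, 1 with a floor of 64 and 2 with the dimmest 50% left out, and 0 with any 1 array left out. The gene called was Meg3 in the first 2 of these settings, and Meg3 and Sgce in the third. Of the partners of Igf2, 0 were called under every alternative tried.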
